A study of Mus musculus with 5 samples.

Results

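The genes described here are 6 genes that myelinating Schwann cells express, Pmp22, Mbp, Mal, Ndrg1, Cd9 and Gjc3, followed through single neurons of the mouse spiral ganglion. They were taken by name from an earlier account of these data as 6 of the 14715 genes with values, and every one of the 6 had a value in each of the 1954 cells. The cells fell into 2 genotypes. CKO cells came from 3 samples of the genotype bhlhb5-Cre/+; Ai14/+; Runx1F/F, in which the Cre driver also acts on a floxed Runx1 gene. Control cells came from 2 samples of the genotype bhlhb5-Cre/+; Ai14/+. Both groups therefore carried the Cre driver and its tdTomato reporter, came from cochleae of both sexes at postnatal days 30 to 33, and were sorted for tdTomato before 10x Genomics 3' libraries were made. The sort keeps any cell in which the driver had acted.

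CKO gave 884 cells with a median of 44120.5 UMIs (unique molecular identifiers, 1 per captured RNA molecule), and Control gave 1070 cells with a median of 38085. The deposited record names the genotype of a cell and no sample, so CKO and Control are 1 pool each without replicates, and no test between them was possible. The barcodes form 5 alphabetical stretches along the columns, stretches 1, 3 and 4 of CKO cells and stretches 2 and 5 of Control cells, which are used below to show how values vary within a genotype. The library behind a stretch is not given in the sources used here. The libraries shared 1 barcode, which occurred in both genotypes. Runx1 RNA averaged 1.68 UMIs per 10000 in CKO cells and 1.23 in Control cells. The assay reads the 3' end of RNA, and which exon is floxed is not given in the sources used here, so this level does not check the labels.

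Schwann cells wrap the axons of peripheral neurons in compact myelin, and in the spiral ganglion glia also ensheathe the neuron bodies. Myelin compaction relies on a small set of abundant membrane and membrane-bound proteins that are made in large amounts together. Type I spiral ganglion neurons, which contact inner hair cells, are the myelinated neurons of the cochlea, whereas type II neurons, which contact outer hair cells, are largely unmyelinated. Pmp22 (peripheral myelin protein 22), Mal and Gjc3 (connexin 29, a gap junction family protein of Schwann cells) cross the membrane repeatedly, as does the tetraspanin Cd9. Mbp (myelin basic protein) is a cytoplasmic protein that binds the inner face of the myelin membrane. Ndrg1 is a cytoplasmic protein whose loss causes a demyelinating neuropathy in humans.

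The genes lie on 6 different chromosomes. On the mouse build GRCm38, 5 of them are at chr11:63128982-63159547 (Pmp22, plus strand), chr2:127633226-127656695 (Mal, minus strand), chr15:66929318-66969640 (Ndrg1, minus strand), chr6:125460266-125494791 (Cd9, minus strand) and chr5:137953461-137963098 (Gjc3, minus strand). None of the 6 overlapped another gene on its own strand in the GENCODE annotation. Starts from the RefSeq promoter table of GRCm38.p6 were used for 4 of the 6, and the promoters of Mbp and Ndrg1 were not analysed here. The 250 bases before these starts are shown because the genes appear together in the same cells although their promoters differ in composition. Capitals mark CG dinucleotides, and each sequence runs 5′ to 3′ on the gene's strand. The windows are chr11:63128732-63128981 and chr11:63131207-63131456 for 2 of the 4 Pmp22 starts, chr2:127656696-127656945 for Mal, chr6:125494761-125495010 for Cd9 and chr5:137963099-137963348 for Gjc3.
Pmp22, upstream start: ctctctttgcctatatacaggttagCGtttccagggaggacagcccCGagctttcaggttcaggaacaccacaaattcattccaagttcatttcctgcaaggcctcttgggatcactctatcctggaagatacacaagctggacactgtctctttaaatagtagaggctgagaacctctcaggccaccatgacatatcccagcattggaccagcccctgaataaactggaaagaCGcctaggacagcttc
Pmp22, next start: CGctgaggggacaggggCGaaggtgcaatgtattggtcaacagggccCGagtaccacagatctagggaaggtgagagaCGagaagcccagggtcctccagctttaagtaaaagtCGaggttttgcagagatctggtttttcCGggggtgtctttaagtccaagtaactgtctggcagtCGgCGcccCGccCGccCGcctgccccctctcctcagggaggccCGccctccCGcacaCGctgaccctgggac
Mal: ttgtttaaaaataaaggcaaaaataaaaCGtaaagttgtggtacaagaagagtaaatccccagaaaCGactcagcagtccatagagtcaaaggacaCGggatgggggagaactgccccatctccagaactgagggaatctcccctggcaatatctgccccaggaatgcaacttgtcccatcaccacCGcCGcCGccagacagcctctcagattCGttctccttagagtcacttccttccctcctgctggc
Cd9: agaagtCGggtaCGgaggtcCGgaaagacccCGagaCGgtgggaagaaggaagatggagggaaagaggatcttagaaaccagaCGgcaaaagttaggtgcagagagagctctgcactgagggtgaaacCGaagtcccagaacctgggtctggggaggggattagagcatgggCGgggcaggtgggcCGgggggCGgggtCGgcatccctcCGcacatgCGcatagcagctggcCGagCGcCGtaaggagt
Gjc3: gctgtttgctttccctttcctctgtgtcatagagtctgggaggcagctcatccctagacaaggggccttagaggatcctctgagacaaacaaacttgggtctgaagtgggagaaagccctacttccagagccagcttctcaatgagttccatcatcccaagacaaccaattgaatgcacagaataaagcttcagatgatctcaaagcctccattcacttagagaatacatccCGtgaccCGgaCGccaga
The upstream Pmp22 start and Gjc3 each held 3 CG dinucleotides and a GC content of 48.8%. Mal held 7 CG dinucleotides and 50% GC. Cd9, with 16 CG dinucleotides and 61.6% GC, and the next Pmp22 start, with 14 and 61.2%, were richer in both. Over 32851 windows of the same length the medians were 6 CG dinucleotides and 52.4% GC. The windows were searched on both strands for ACAAAG and ACAATG, which resemble sites of SOX factors, and for GTGGGNG, which resembles sites of EGR factors. The only match in the windows of these 4 genes was a GTGGGNG 145 bases before the Gjc3 start, and 28.1% of all windows held that motif. ACAAAG occurred in 16.5% of all windows and ACAATG in 10.7%.

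Levels are given as UMIs per 10000 UMIs of a cell, and a gene is called present in a cell at a level of 1 or more. The summed level of the 6 genes was bimodal. Of 1954 cells, 606 (31.0%) held no UMI of any of the 6, which was 31.1% of CKO cells and 30.9% of Control cells. These pooled values hide a wide spread, since the share was 32.96%, 26.1% and 38.9% in stretches 1, 3 and 4 of CKO, against 45.2% and 19.2% in stretches 2 and 5 of Control. At the other end, 1118 cells (57.2%) had a summed level of 8 or more, 53.8% of CKO cells and 60.0% of Control cells. Low levels above 0 and under 1 were held by 162 cells (8.29%), 9.62% of CKO cells and 7.20% of Control cells. The range from 1 to under 8 held 68 cells (3.48%), 48 of them CKO (5.43% of CKO cells) and 20 Control (1.87% of Control cells). Among cells with any UMI of the 6, the median summed level was 18.9 in CKO and 22.3 in Control. The range from 1 to under 8 was therefore rarely filled in either genotype, and more often in CKO.

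**Figure D1:**
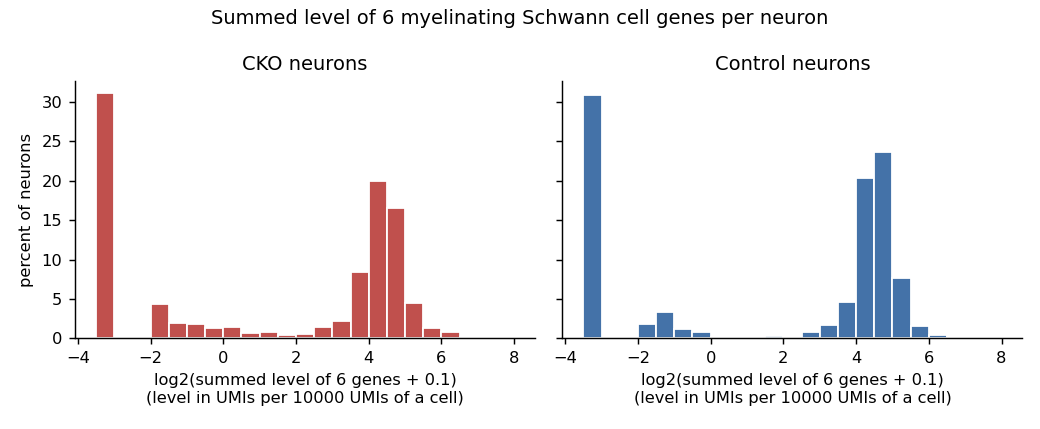
Distribution of the summed level of Pmp22, Mbp, Mal, Ndrg1, Cd9 and Gjc3 over 884 CKO neurons (left) and 1070 Control neurons (right). The x axis is log2 of the level in UMIs per 10000 plus 0.1, and the y axis the percent of neurons per bin of 0.5 log2 units. The leftmost bar holds neurons with no UMI (31.1% in CKO and 30.9% in Control, where the 2 stretches had 45.2% and 19.2%). A separate mode lies near log2 4 to 5 in both genotypes.

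Each of the 5 abundant genes was split in the same way. Pmp22, the most abundant, had no UMI in 39.4% of cells and was present in 58.0%, which left 41 cells with a level above 0 and under 0.5 and 10 cells from 0.5 to under 1. Mbp was present in 59.4% of cells, Ndrg1 in 56.4%, Mal in 54.5% and Cd9 in 50.3%. Mbp, the gene at chr18:82475146-82585637 (GRCm38, plus strand), differed from the others at the low end, since 109 cells had a Mbp level above 0 and under 0.5, against 41 for Pmp22. Gjc3 lay too low for the level of 1 to be of use. It reached that level in 3.63% of cells, although 41.6% of cells had at least 1 Gjc3 UMI, and its highest level was 3.54.

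The 6 genes appeared together. Of the 64 possible combinations of presence, 25 occurred, and only a few were common. In 847 cells (43.3%) all but Gjc3 were present, in 780 (39.9%) none was, in 116 Pmp22, Mbp, Mal and Ndrg1 were, and in 67 all 6 were. Among cells with Pmp22, Mbp was present in 98.4% of CKO cells and 99.2% of Control cells, and among cells without Pmp22 in 6.09% of CKO cells and 3.98% of Control cells. A single gene was present in 33 cells, 31 of them with Mbp and 2 with Pmp22. Of the 31 cells with Mbp alone, 21 were CKO and 10 Control.

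**Figure D2:**
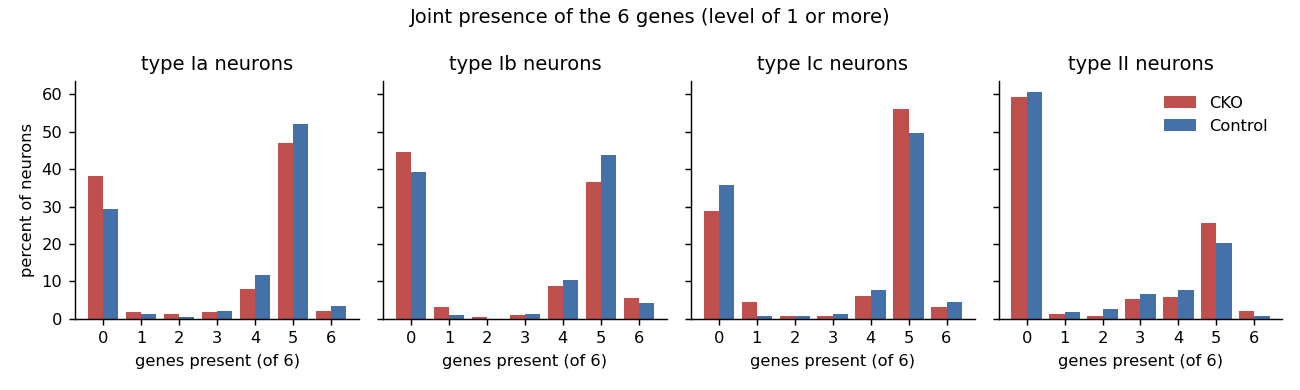
Number of the 6 genes present (level of 1 or more) per neuron, by neuron class. Bars give the percent of CKO (left of each pair) and Control (right of each pair) neurons of that class, and in every class the bars at 0 and 5 stand out, with 8.86% of all type II neurons and 3.74% of all type I neurons at 1 to 3.

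Cells with at least 4 of the 6 genes present are called carriers below. They numbered 1087 (55.6%), 780 cells had none present and 87 (4.45%) had 1 to 3. Carriers and the other cells were separated by the values that define them, so their levels of the 6 are a description only. Pmp22 averaged 9.48 in carriers and 0.218 in non-carriers, Mbp 6.11 and 0.415, Ndrg1 3.41 and 0.146, Mal 3.11 and 0.0504, Cd9 2.66 and 0.0702, and Gjc3 0.373 and 0.0182. The cells just inside the rule, the 169 with 4 genes present, had a median summed level of 17.7, and the 40 cells with 3 present had 9.84. At least 1 UMI of Pmp22, Mbp and Mal was found in 100% of carriers, and of Gjc3 in 71.4%.

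The non-carriers were not empty of these RNAs, and Mbp was the RNA most often seen in them. At least 1 Mbp UMI was seen in 24.6% of the 867 non-carriers, against 11.2% for Pmp22, 10.8% for Ndrg1, 7.50% for Mal, 7.27% for Cd9 and 4.27% for Gjc3. Of the non-carriers with Mbp, 100 had a single UMI, 38 had 2 or 3 and 75 had 4 or more, and in 119 Mbp was the only one of the 6 with a UMI. The share of non-carriers with Mbp was 28.0% in CKO and 21.4% in Control, where the median depth of non-carriers was 41767 UMIs in CKO and 33544 in Control. The part of depth in that gap was not tested.

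Over all cells the levels of the 5 abundant genes were tightly correlated, with Pearson's r of their natural log values between 0.90 and 0.96 for the 10 pairs, and the pairs with Gjc3 at 0.65 to 0.67. These values are over 1954 cells that share libraries and depth, and they include the split into carriers and non-carriers. Within the 1087 carriers, chosen on the same genes, the 15 pairs had r of 0.10 to 0.57, with a median of 0.29. Pmp22 and Mbp were highest at 0.57, and Ndrg1 and Cd9 lowest at 0.10.

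The amount of this RNA per carrier depended on the class and on the stretch. With the stretches pooled, the median carrier held 101 UMIs of the 6 genes among type Ia neurons, 103 among type Ib, 102 among type Ic and 64 among type II. The total UMIs of the same carriers had medians of 51181 in type Ia, 40212 in type Ib, 41332 in type Ic and 29097 in type II. The median summed level per 10000 was 19.9 in type Ia, 24.9 in type Ib, 25.04 in type Ic and 21.9 in type II. Among the 3 type I classes the level was lowest in type Ia in all 5 stretches, while type II lay lower still in stretches 2 and 4. In molecules the 3 type I classes were close once stretches were pooled. Pooled CKO carriers had medians of 98, 104.5 and 103.5 UMIs in types Ia, Ib and Ic, and Control carriers 102.5, 102 and 102. Single stretches were farther apart. The medians in types Ia, Ib and Ic were 124.5, 109 and 110 UMIs in stretch 1, 86, 93.5 and 101.5 in stretch 3, and 139, 109 and 100 in stretch 4 of CKO, where type Ia had 8 carriers. In Control they were 85, 78.5 and 90.5 in stretch 2 and 104, 113 and 117 in stretch 5, so the order of the classes changed with the stretch. Type II carriers had medians of 65 UMIs in CKO and 55.5 in Control. Among carriers of 20000 to 35000 total UMIs, a range chosen after seeing the data, type II had a median of 63 UMIs and type I 82. All neurons in that range had median totals of 26661 UMIs in type II and 29968 in type I. In stretch 4 type II was not lower, with 96 UMIs from 3 carriers against 95 in type I.

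**Figure D3:**
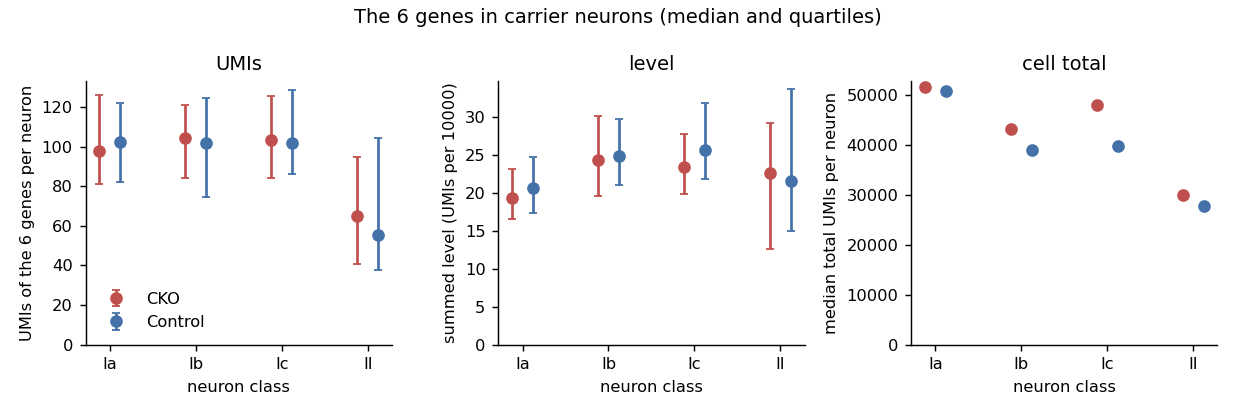
Carrier neurons by class, CKO left of Control in each pair. The left and middle panels show the median (points) and quartiles (bars) of the summed UMIs and the summed level per 10000, and the right panel the median total UMIs per neuron. With stretches pooled, the type I medians lie between 98 and 104.5 UMIs, whereas in single stretches they run from 78.5 to 139.

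The neuron classes were set by single genes, in the order type II at a Dupd1 level of 1 or more, then type Ic at a Lypd1 level of 3 or more, then type Ia at a Calb2 level of 150 or more, then type Ib. None of these genes is among the 6. Type II neurons were carriers less often than type I neurons. Carriers made up 85 of 271 type II neurons (31.4%, exact 95% Clopper-Pearson interval 25.9 to 37.3) and 1002 of 1683 type I neurons (59.5%, 57.1 to 61.9), a difference of -28.2 percentage points (Newcombe 95% interval -33.9 to -22.0). The difference was -23.1 points in CKO and -33.2 in Control. These intervals cover counting error only. Levels over all cells followed the same order. Pmp22 averaged 2.69 in type II and 5.80 in type I neurons, Mbp 2.13 and 3.82, Ndrg1 1.24 and 2.08, Mal 1.05 and 1.87, Cd9 0.923 and 1.61, and Gjc3 0.105 and 0.234. At least 1 UMI of the 6 was seen in 49.4% of type II and 72.1% of type I neurons, at median depths of 26409 and 42719 UMIs.

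Type II neurons were also shallower, and carriers were commoner in deep cells. The type II and type I neurons of each genotype were split separately by total UMIs into 4 groups of equal size. Groups of the same rank therefore differ in depth between the types. The deepest type II group covered 30763 to 72765 UMIs in CKO and 28199 to 38325 in Control. The shallowest type I group covered 11249 to 38536.5 UMIs in CKO and 10379 to 33357.5 in Control. In the deepest group of type II neurons carriers made up 52.6% in CKO and 53.3% in Control, and in the shallowest 21.1% in CKO and 20.0% in Control. The deepest group of type I neurons held 65.6% carriers in CKO and 77.7% in Control, and the shallowest 51.4% in CKO and 40.8% in Control. Between 20000 and 35000 UMIs, the share was 30% of 230 type II and 50% of 320 type I neurons, a difference of -20.0 points (-27.8 to -11.7). Depth was not equal within that range, with median totals of 26661 UMIs in type II and 29968 in type I neurons. With every cell thinned to 10000 UMIs, which left out no cell, the carrier share was 35.1% in type II and 59.8% in type I. Without matching for depth, the type II share lay below the type I share in all 5 stretches. In CKO the shares were 39.7% in type II and 48.1% in type I in stretch 1, 32.4% and 68.1% in stretch 3, and 21.7% and 50% in stretch 4. In Control these were 25% and 50% in stretch 2 and 34.0% and 70.6% in stretch 5. Between 20000 and 35000 UMIs the gap was absent in stretch 1, with 39.1% of 46 type II and 39.0% of 41 type I neurons. In that range type II stayed lower in stretch 3 (33.3% against 69.8%) and stretch 4 (15% against 58.3%, of 20 and 12 neurons). It was also lower in stretch 2 (23.1% against 43.0%) and stretch 5 (33.3% against 63.5%).

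Among type I neurons carriers made up 60.9% of type Ia, 55.8% of type Ib and 62.8% of type Ic. By genotype, the shares were 57.0% of CKO and 66.9% of Control type Ia neurons, 50.9% of CKO and 58.5% of Control type Ib neurons, and 65.2% of CKO and 61.8% of Control type Ic neurons. The CKO minus Control difference was -9.91 points in type Ia (-17.4 to -2.07), -7.56 in type Ib (-15.7 to 0.670) and 3.37 in type Ic (-6.56 to 12.7). In type II neurons it was 4.98 (-6.19 to 15.7). Of these 4 intervals only that of type Ia did not include 0, but they cover counting error only and do not test the genotypes. The stretches were more spread than the genotypes. The type Ia share was 49.1%, 65.2% and 42.1% in stretches 1, 3 and 4 of CKO, against 59.6% and 68.9% in stretches 2 and 5 of Control. CKO stretch 3 thus lay above Control stretch 2 in type Ia. The type Ic share was 56.3%, 85.7% and 62.5% in stretches 1, 3 and 4 of CKO, against 47.6% and 82.2% in stretches 2 and 5 of Control.

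**Figure D4:**
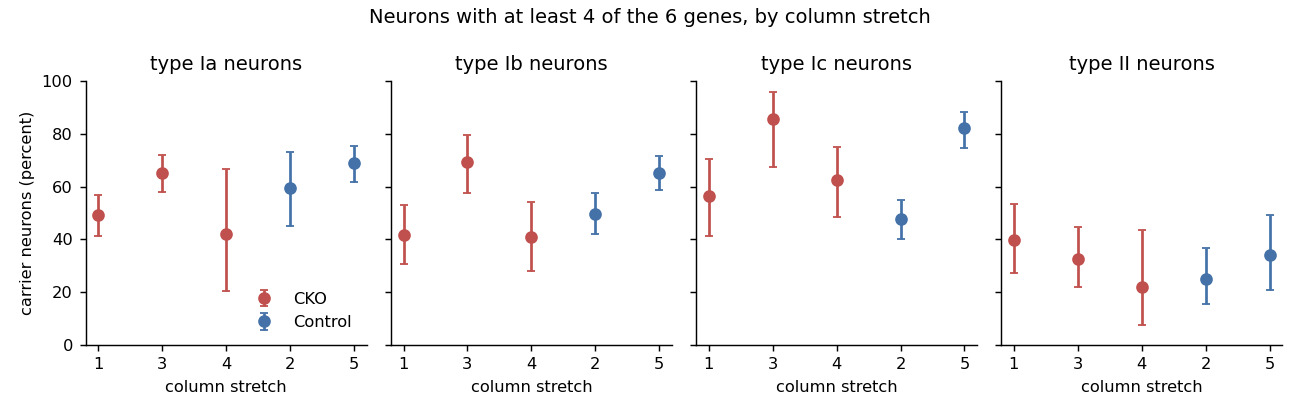
Percent of neurons that are carriers in each column stretch, by neuron class, with exact 95% intervals for counting error. CKO stretches 1, 3 and 4 stand left of Control stretches 2 and 5, and in the type Ic panel stretches 3 (85.7%) and 5 (82.2%) lie above stretches 1, 4 and 2.

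Over all cells, 466 of 884 CKO neurons (52.7%, 49.4 to 56.0) and 621 of 1070 Control neurons (58.0%, 55.0 to 61.0) were carriers. The difference of -5.32 points (-9.73 to -0.896) depended on which stretches were counted. Stretches 1, 3 and 4 of CKO had 46.8%, 61.3% and 45.9% carriers, and stretches 2 and 5 of Control 46.3% and 67.7%, so the genotypes overlapped. Without stretch 5 the difference was 6.45 points, with CKO higher, without stretch 2 it was -15.0, and without stretch 3 it was -11.6. It was -1.33 without stretch 1 and -3.84 without stretch 4. The median depth was 49000, 42516.5 and 42800 UMIs in stretches 1, 3 and 4 of CKO, against 33694 and 44242.5 in stretches 2 and 5 of Control. The deepest, stretch 1, had 46.8% carriers, and the shallowest, stretch 2, had 46.3%. Stretch 5, next in depth to stretch 1, had 67.7%, and stretches 3 and 4, of like depth, had 61.3% and 45.9%. Among cells of 20000 to 35000 UMIs the shares were 42.3% in CKO and 41.2% in Control, and among cells of 35000 to 50000 UMIs 56.6% in CKO and 66.6% in Control. The part of depth in the difference between genotypes was not tested beyond these values.

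None of the genes stood at least 1.5-fold apart between the pools. That fold, at a mean of 0.5 or more in either genotype, was met by 1.03% of 3784 genes, 0.529% higher and 0.502% lower in CKO, and by 0 of the 5 of the 6 that reached the mean. Gjc3 did not reach it. Without stretch 2 or stretch 3 Mbp passed that fold (log2 -0.68 and -0.63), and without stretch 5 Cd9 did (log2 0.60). Fold changes are log2((CKO + 0.1)/(Control + 0.1)) of mean levels, and their median over the 3784 genes was -0.02. Mbp was the farthest of the 6 from 0, with a mean of 3.03 in CKO and 4.04 in Control (log2 -0.40). Its mean was 2.45, 3.67 and 2.85 in stretches 1, 3 and 4 of CKO, against 2.95 and 4.93 in stretches 2 and 5 of Control, so that Control stretch 2 fell within the CKO range. Without stretch 5 the Mbp value was 0.04. Pmp22 averaged 4.89 in CKO and 5.76 in Control (log2 -0.23). By stretch Pmp22 had 4.67, 4.97 and 5.24 in CKO, and 4.36 and 6.91 in Control, with the CKO stretches between those of Control. Ndrg1 averaged 1.75 in CKO and 2.13 in Control (log2 -0.27). The CKO stretches had Ndrg1 means of 1.41, 2.15 and 1.58, and those of Control 1.92 and 2.31.

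The remaining genes were close between the pools. Mal averaged 1.79 in CKO and 1.72 in Control (log2 0.05), and a single CKO type Ib neuron of stretch 1 with 230 Mal UMIs, a level of 93.9, held the highest value. Without that cell the means were 1.69 in CKO and 1.72 in Control (log2 -0.03). Cd9 averaged 1.508 in CKO and 1.513 in Control (log2 -0.00). The CKO stretches had Cd9 means of 1.51, 1.495 and 1.54, all between the 0.963 and 1.96 of the Control stretches. Gjc3 averaged 0.208 in CKO and 0.222 in Control (log2 -0.07). The sum of the 6 was 13.2 in CKO and 15.4 in Control (log2 -0.22), and 24.3 and 25.8 (log2 -0.09) over carriers only. In type II neurons the sum was 8.27 in CKO and 7.95 in Control.

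Within carriers the mix of the 6 RNAs could be compared apart from how many cells carried them. Pmp22 gave 37.7% of their summed UMIs in CKO carriers and 37.9% in Control carriers, Mbp 21.9% and 25.7%, Mal 13.7% and 11.2%, Ndrg1 13.4% and 13.7%, Cd9 11.8% and 10.1%, and Gjc3 1.60% and 1.42%. The mix was similar across classes. Pmp22 made up 37.1% in type Ia, 37.3% in type Ib, 39.9% in type Ic and 34.3% in type II carriers, and Mbp between 23.4% and 25.6%. Across stretches Pmp22 ranged about as widely as across classes. Its share was 39.5%, 34.8% and 40.5% in stretches 1, 3 and 4 of CKO, against 37.8% and 37.9% in stretches 2 and 5 of Control. Mbp and Cd9 varied more across stretches than across classes, where Cd9 lay between 10.2% and 11.8%. Mbp made up 18.9%, 25.02% and 21.0% in stretches 1, 3 and 4 of CKO, against 24.4% and 26.2% in stretches 2 and 5 of Control. Cd9 made up 13.2%, 10.3% and 12.0% in those of CKO, and 8.11% and 10.9% in those of Control. The number of Mbp UMIs per Mal UMI was 1.25, 1.94 and 1.70 in stretches 1, 3 and 4 of CKO, against 1.96 and 2.44 in stretches 2 and 5 of Control. Over carriers the Mbp level itself averaged 5.42 in CKO and 6.63 in Control (log2 -0.29). The CKO stretches had Mbp means of 4.82, 5.69 and 5.91, and the Control stretches 6.04 and 6.96. Every CKO stretch lay below both Control stretches for Mbp and for no other of the 6, and 11.4% of 3782 genes were placed in that way. None of the 6 had every CKO stretch above both Control stretches, as 5.71% of the genes did. The Control stretches were the higher ones in the ratio of Mbp to Mal too, with CKO stretch 3 at 1.94 just under Control stretch 2.

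**Figure D5:**
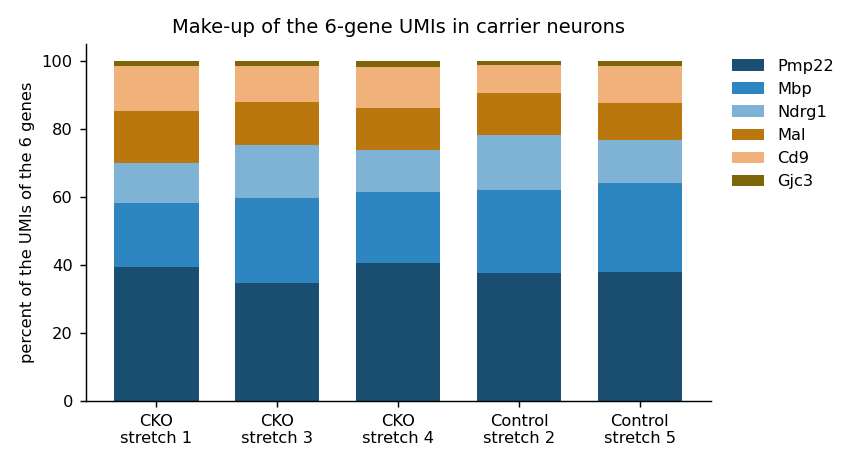
Share of each gene in the summed UMIs of the 6 genes in carrier neurons, by column stretch. Each bar adds up to the whole, CKO stretches stand left of Control stretches, and Mbp has its lowest share in CKO stretch 1 (18.9%) and its highest in Control stretch 5 (26.2%).

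Among genes other than the 6, those most like them were taken as the 10 with the highest Pearson's r, over all 1954 cells, between their natural log value and the mean natural log value of the 6, at a mean level of 0.2 or more. They included the small heat shock protein gene Cryab (0.96), Itih5 (0.95), S100a6 (0.94), Igfbp6 (0.94), the myelin gene Cnp (0.91), Gpm6b (0.91), the metallothionein Mt1 (0.90) and the collagen gene Col1a2 (0.90). Igfbp6 averaged 8.16 in carriers and 0.138 in non-carriers, and Cryab 8.45 and 0.315. Mt1 had at least 1 UMI in 100% of carriers and 53.9% of non-carriers. Between genotypes Cryab averaged 4.94 in CKO and 4.76 in Control (log2 0.05), and Igfbp6 4.56 in CKO and 4.64 in Control (log2 -0.02).

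Carriers and non-carriers were chosen on the 6 genes, so the counts that follow describe which other genes go with them and carry no test. At a mean of 0.5 or more in either set, 2.14% of 3830 genes were at least 2-fold higher in carriers and 0.627% at least 2-fold lower, with a median log2 of -0.03. Of the 6, all 5 at that level were higher, as the choice of carriers requires. Of 16 other Schwann cell myelin genes, 8 reached the level and 6 of these were at least 2-fold higher, with a median log2 of 3.06. These included Cryab, Cnp, Prx (periaxin, 0.978 in carriers and 0.0381 in non-carriers) and the tight junction gene Cldn19 (0.557 and 0.0125). Cadm4 and Gldn were exceptions, with Cadm4 at 0.682 in carriers and 0.656 in non-carriers. Gldn, whose protein gliomedin clusters sodium channels at nodes of Ranvier, averaged 2.38 in carriers and 3.99 in non-carriers. A Gldn UMI was nevertheless seen in 95.1% of carriers and 74.9% of non-carriers. The part of neuron class in the Gldn means was not tested.

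Transcription factors of the Schwann lineage were sparse. Of 12, only Jun (1.74 in carriers and 1.89 in non-carriers) and Yy1 (0.649 and 0.734) reached the level, and neither was 2-fold apart. Sox2 averaged 0.389 in carriers and 0.0177 in non-carriers, and Srebf1, a regulator of lipid synthesis, 0.282 and 0.232. Sox10 and Egr2, which drive the myelin programme and were named after their values were seen, averaged 0.192 and 0.175 in carriers, and 0.0117 and 0.00823 in non-carriers. Of 17 genes of myelin lipid and sterol synthesis, 8 reached the level and 3 were at least 2-fold higher in carriers, with a median log2 of 0.87. These were the desaturase Scd2 (6.07 in carriers and 2.13 in non-carriers), the sterol pathway gene Hmgcs1 (1.72 and 0.725) and Msmo1 (0.688 and 0.265). Ugt8a, which makes galactolipids, had 1.74 in carriers and 1.29 in non-carriers, and Fdps 0.969 and 0.609.

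Markers of other cells separated from the 6 in part. Of 12 oligodendrocyte genes 6 had values and none of these reached the level. Mog, Opalin, Ermn, Olig1, Olig2 and Cldn11 had no values, so they could not be analysed here. Mag, which Schwann cells also make, averaged 0.0562 in carriers and 0.0111 in non-carriers, Aspa 0.0472 and 0.00300, Mobp 0.0145 and 0.000735, and Tmem88b 0.00750 and 0.00427. The summed level of the 6 oligodendrocyte genes was 0.136 in carriers and 0.0259 in non-carriers. For Mag and Mobp the means rest on few cells, with a Mag UMI in 3.22% of carriers and 2.42% of non-carriers, and a Mobp UMI in 0.276% and 0.231%. Aspa had a UMI in 15.2% of carriers and 1.15% of non-carriers. Of 10 genes of non-myelinating Schwann cells 4 reached the level and none was 2-fold higher in carriers. Ncam1 had 1.84 in carriers and 1.81 in non-carriers, Cdh2 1.27 and 1.30, L1cam 0.510 and 0.710, and Ngfr 1.21 and 2.45. Neurons can also express these 4 genes. Below the level, Sox2 of the same list went with the 6, at 0.389 in carriers and 0.0177 in non-carriers. Cdh19 had 0.00634 in carriers and 0.00143 in non-carriers, and Matn4 0.00866 and 0.00411. Gap43 went the other way, with 0.0583 in carriers and 0.174 in non-carriers.

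Satellite glia markers were higher in carriers, to differing degrees. Of 13, 8 reached the level and 5 were at least 2-fold higher in carriers, with a median log2 of 2.23, and 1 gene was on both this list and that of Schwann cell myelin. Among the 5, Glul (glutamine synthetase) averaged 1.76 in carriers and 0.255 in non-carriers, Gpr37l1 0.591 and 0.0274, Ttyh1 0.562 and 0.0490, and Kcnj10 0.526 and 0.0266. Cst3, with 5.07 and 4.08, and Apoe, with 1.80 and 0.991, were less than 2-fold higher. Apoe had at least 1 UMI in 51.4% of carriers and 8.65% of non-carriers, and Cryab in 100% and 24.6%. The fibroblast gene Col1a2 averaged 1.47 in carriers and 0.0835 in non-carriers, while the other fibroblast genes were low in carriers, with Dcn at 0.0555, Lum at 0.00777 and Col3a1 at 0.00111, against 0.0152, 0.000519 and 0.00162 in non-carriers. Summed levels in carriers were 0.00345 for 2 macrophage genes, 0.0337 for 2 hair cell genes and 0.0198 for 2 supporting cell genes, against 0.0166, 0.0689 and 0.0292 in non-carriers. The 5 endothelial and 3 erythrocyte genes on the lists had no values, so they could not be analysed here.

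Carriers kept the RNA of neurons. Of 12 spiral ganglion neuron genes, all at the level, none was 2-fold higher and 1, Gata3, was at least 2-fold lower in carriers (1.03 in carriers and 2.28 in non-carriers). The neurofilament genes Nefh, Nefm and Nefl averaged 53.0, 44.8 and 38.4 in carriers, and 56.2, 49.5 and 44.1 in non-carriers, and the synaptic gene Snap25 26.8 in carriers and 23.3 in non-carriers. Summed over the 12, the level was 205 in carriers and 221 in non-carriers. Type II neurons made up 85 of the 1087 carriers and 186 of the 867 non-carriers, and the part of this difference in the gap of Gata3 was not tested. Carriers had a median of 43090 UMIs and 7008 genes per cell, against 35376 UMIs and 6349 genes in non-carriers, and without the UMIs of the 6 genes the median of carriers was 42975.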

How the data were processed

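Levels were measured in single cells of 3 CKO and 2 Control samples. The authors deposited natural log values, ln(1 + 100000 × UMI count / cell total), a unit settled from the values: 100% of those above 0 gave whole counts within a tolerance of 0.01. Per the submitters' processing notes Cell Ranger, Seurat and mm10 were used. How cells and genes were chosen is not given in the sources used here. The matrix held 14715 genes, 1954 cells of 10379 to 100856 UMIs and 0 mitochondrial genes. No doublet caller was run, and doublets were not removed here. Python 3.11.15, numpy 2.4.6, pandas 2.3.3, scipy 1.17.1 and matplotlib 3.10.9 were used. The computations were tested on simulated data.

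The members and all 14 gene lists were chosen with earlier results of these data known. Cells carry a genotype and no sample, and they are not replicates, so no p-value was computed. Intervals are exact 95% Clopper-Pearson (shares) or Newcombe (differences) and cover counting error only. Named genes are the 6, the 10 most like them, up to 4 of each list with the highest mean, genes at 0, and members of small counts, which were chosen after their values were seen; some of these genes are not reported here. Alternatives changed thresholds, pseudocount, depth and stretches.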

Additional observations from a re-analysis of the deposited data

How the results depend on the processing

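No paired analysis was possible because the cells carry a genotype but no replicate number. The lower carrier share of type II against type I neurons kept its sign under all 13 alternatives, from -32.9 to -20.0 points, the last being cells of 20000 to 35000 UMIs, a depth range chosen after seeing the data. The CKO minus Control carrier share was -1.33 without stretch 1, -15.0 without stretch 2, -11.6 without stretch 3, -3.84 without stretch 4 and 6.45 without stretch 5. It was 1.18 among cells of 20000 to 35000 UMIs and -9.97 among cells of 35000 to 50000, ranges also chosen after seeing the data. The log2 of the summed level was -0.30 from summed UMIs, -0.20 in type I neurons only, -0.15 without stretch 1, -0.47 without stretch 2, -0.31 without stretch 3, 0.16 without stretch 5 and -0.0871 in carriers only, the last chosen after seeing the data. The count of genes at least 1.5-fold apart was 1 without stretch 2, 1 without stretch 3 and 1 without stretch 5. Of 61 alternatives for single genes, 9 changed sign. Without stretch 5 these were Pmp22 (0.16), Mbp (0.0387), Cd9 (0.60) and Gjc3 (0.25). Mal had -0.0247 from summed UMIs, -0.10 without stretch 2 and -0.0284 without its highest cell, and Cd9 had 0.0282 in type I neurons and 0.00333 without stretch 3. The 24 carrier shares under other class thresholds stayed within the counting intervals. The cause of these shifts was not tested. The 5 stretches differed by more than counting error in their carrier shares, so the intervals are too narrow for a comparison of genotypes.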
